A study of Mus musculus with 6 samples.

Results

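The hypoxia-inducible factors (HIFs) and their immediate regulators were described in the cardiac side population (SP), a rare heart cell fraction defined by efflux of a DNA-binding dye. The group was chosen by name and holds 10 of the 50600 genes of the count table: the alpha subunits *Hif1a*, *Epas1* and *Hif3a*, their partner *Arnt*, the ubiquitin ligase subunit *Vhl*, the prolyl hydroxylases *Egln1*, *Egln2* and *Egln3*, and the HIF target genes *Adm* and *Bnip3*. Freshly sorted SP cells were sequenced in 6 libraries, 3 from wild-type C57BL/6NRj mice (wt) and 3 labelled flt3L-/-, strain C57BL/6Flt3Ltml/mx on a C57BL/6N background, which by the label lacks the ligand of the receptor kinase Flt3. Mice were 8 to 12 weeks old, and each library pooled the cells of 4 mice after cardiomyocytes and erythrocytes had been depleted. On each of 3 sorting dates 1 wt and 1 flt3L-/- pool was sorted, and these pairs are numbered 1, 2 and 3 by date. Pairs 1 and 2 were sorted in the same week, and pair 3 about a year later.

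HIF alpha subunits are made continuously. In the presence of oxygen, EGLN enzymes hydroxylate them on prolines, and the VHL complex then marks them for degradation. When oxygen is short they persist, pair with ARNT in the nucleus and bind short DNA elements near genes of glucose use, vessel growth and mitophagy. EPAS1, also called HIF-2 alpha, is known as the alpha subunit of endothelium, while HIF-1 alpha is found in most cells. Because this control acts on the proteins, transcript levels of the subunits measure their supply and not their activity.

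Total counts lay between 24370913 and 31145519 per library. Levels are given as CPM, the reads of a gene relative to the library's total after TMM scaling, and 3 counts, the detection limit used here, equal 0.109 to 0.127 CPM. This limit covers counting error only, as the reads carry no molecular identifiers. The targeted gene *Flt3l* had 8.67, 10.8 and 12.1 CPM in the wt libraries of pairs 1, 2 and 3, and 13.6, 12.4 and 14.4 CPM in their flt3L-/- partners. Reads of the gene were thus not fewer in the latter, and the counts per gene do not show which exons they came from, so flt3L-/- stands for the label throughout. Of the exon bases of *Flt3l*, 22.1% are shared with other gene models, mainly Gm45713, and reads there cannot be told apart. Side population markers were present in each library, with the dye pump gene *Abcg2* at 147 to 274 CPM and *Cd34* at 926 to 1172 CPM. Summed over 8 endothelial markers the level was 6613 to 8741 CPM, and over 7 fibroblast markers 3316 to 15810 CPM. The sum of 7 macrophage and monocyte markers spanned 139 to 2365 CPM, and that of 8 cardiomyocyte markers 109 to 187 CPM. Cells of these types and RNA per cell cannot be told apart in such pools.

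Promoter sequences are shown for 4 members, the HIF target genes *Adm*, *Bnip3* and *Egln3* and, because its level went with that of *Bnip3*, *Egln2*. They are the 250 bases before the RefSeq start on GRCm38.p6, with each match to ACGTG or GCGTG, the core letters of a hypoxia response element, in capitals. Both strands were searched, so that CACGT and CACGC are matches on the other strand, and CACGTG counts as 2 overlapping matches.

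*Adm*, plus strand, chr7:110627407-110627656: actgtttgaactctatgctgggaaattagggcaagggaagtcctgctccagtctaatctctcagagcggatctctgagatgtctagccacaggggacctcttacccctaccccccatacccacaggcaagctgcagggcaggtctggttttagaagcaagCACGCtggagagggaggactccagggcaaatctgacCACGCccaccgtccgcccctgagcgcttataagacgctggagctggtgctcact
*Bnip3*, minus strand, chr7:138909507-138909756: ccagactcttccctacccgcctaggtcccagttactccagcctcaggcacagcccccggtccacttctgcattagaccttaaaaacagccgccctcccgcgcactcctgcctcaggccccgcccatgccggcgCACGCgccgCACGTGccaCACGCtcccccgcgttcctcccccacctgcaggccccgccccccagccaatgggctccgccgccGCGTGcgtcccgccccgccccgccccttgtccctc
*Egln3*, minus strand, chr12:54203875-54204124: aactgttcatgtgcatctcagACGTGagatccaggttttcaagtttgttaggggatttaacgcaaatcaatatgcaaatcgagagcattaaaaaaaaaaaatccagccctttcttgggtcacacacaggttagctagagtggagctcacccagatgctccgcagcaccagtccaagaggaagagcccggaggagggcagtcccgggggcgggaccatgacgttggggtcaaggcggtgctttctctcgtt
*Egln2*, minus strand, chr7:27166803-27167052: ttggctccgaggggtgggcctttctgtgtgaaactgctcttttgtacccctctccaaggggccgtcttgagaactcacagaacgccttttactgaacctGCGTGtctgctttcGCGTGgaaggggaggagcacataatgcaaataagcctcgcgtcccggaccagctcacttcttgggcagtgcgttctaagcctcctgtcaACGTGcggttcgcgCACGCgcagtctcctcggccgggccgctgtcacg

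The *Bnip3* window held 5 matches, of which the farthest began 117 bases before the start and the nearest ended 31 bases before it. A count of 5 or more was found in 1.01% of the 32851 mouse windows of the same length. *Egln2* held 4 matches in the window shown, against 2.58% of all windows with 4 or more, and 1 match in the window of another listed start. *Adm* held 2, where 16.7% of all windows held at least 2, and *Egln3* held 1, where 38.6% held at least 1. Among the other members, *Hif1a* held 3 matches, where 6.58% of all windows held at least 3. *Hif3a* and *Egln1* held 2 each, *Arnt* 1 and *Vhl* none, and 9 of the 10 members had a promoter sequence. These matches describe letters in the windows and were not measured as binding sites.

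*Epas1* was the most abundant member per exon length in wt and over all libraries. Per kilobase of exon, its level averaged 101 ± 30.5 CPM (SD, n = 6 libraries), followed by *Adm* with 77.9 ± 7.77, *Bnip3* with 45.3 ± 22.0 and *Hif1a* with 34.7 ± 4.21. In the library labelled flt3L-/- of pair 3, *Epas1* lay at 61.0 CPM per kilobase, under both *Adm* and *Bnip3*. The ranges of these neighbours over the 6 libraries overlapped, so their order is not separated from the spread between libraries. Below them *Egln2* had 22.0 ± 2.71 CPM per kilobase, with its highest library under the lowest of *Hif1a*. *Arnt* with 13.0 ± 1.44 and *Vhl* with 11.7 ± 1.85 overlapped each other and lay under *Egln2*. *Egln3* with 3.51 ± 0.942 and *Egln1* with 2.82 ± 0.794 also overlapped, and *Hif3a* came last with 0.0767 CPM per kilobase.

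**Figure D1:**
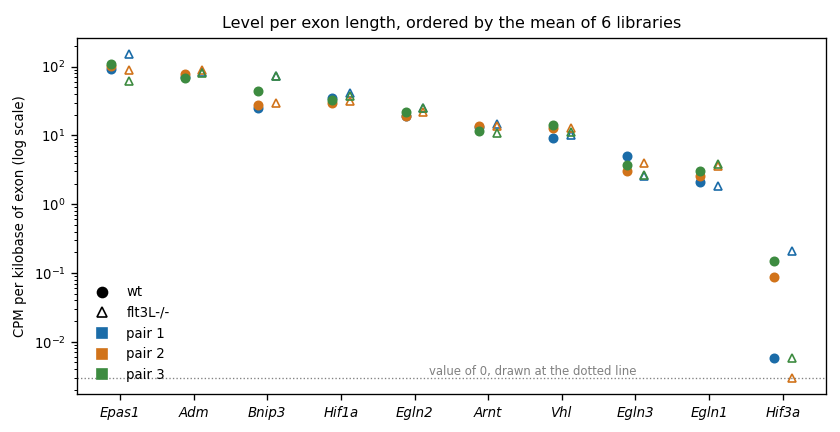
Level of each member in the 6 libraries as CPM per kilobase of exon on a log axis, ordered by the mean. Filled circles are wt libraries, open triangles are libraries labelled flt3L-/-, and colours mark the pair. Levels span from 101 CPM per kilobase for *Epas1* on average to at or near 0 for *Hif3a*.

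Of the 13475 protein-coding genes tested for the difference between the groups, 0 (0%) had an adjusted p under 0.05 by edgeR's quasi-likelihood test, fitted with a term for each sorting date, and 484 (3.59%, with 1.11% higher and 2.49% lower) had an unadjusted p under 0.05. All 10 members were tested and none was called. With DESeq2, 21 genes were called and again no member. The study, with an earlier version of edgeR, reported genes under the same adjusted threshold, and no member was among them. Why its calls differ from the fit here was not tested. In the edgeR fit used here, *Bnip3* was the 1 member with an unadjusted p under 0.05. The groups did not overlap for 1 of the 10 members, *Adm*, against 6.45% of all genes tested (3.53% higher and 2.92% lower). In each of the 3 pairs, 4 members (*Hif1a*, *Egln2*, *Adm* and *Bnip3*) had the higher value in the library labelled flt3L-/-, where 14.2% of all genes did, and 0 members had the lower value in each pair, against 11.5%. Either way, 25.7% of all genes tested had 1 direction in 3 of 3 pairs. The filter asked for over 1 CPM in at least 2 libraries. *Hif3a* passed it only through wt of pair 3 and flt3L-/- of pair 1, and is therefore given by its counts.

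**Figure D2:**
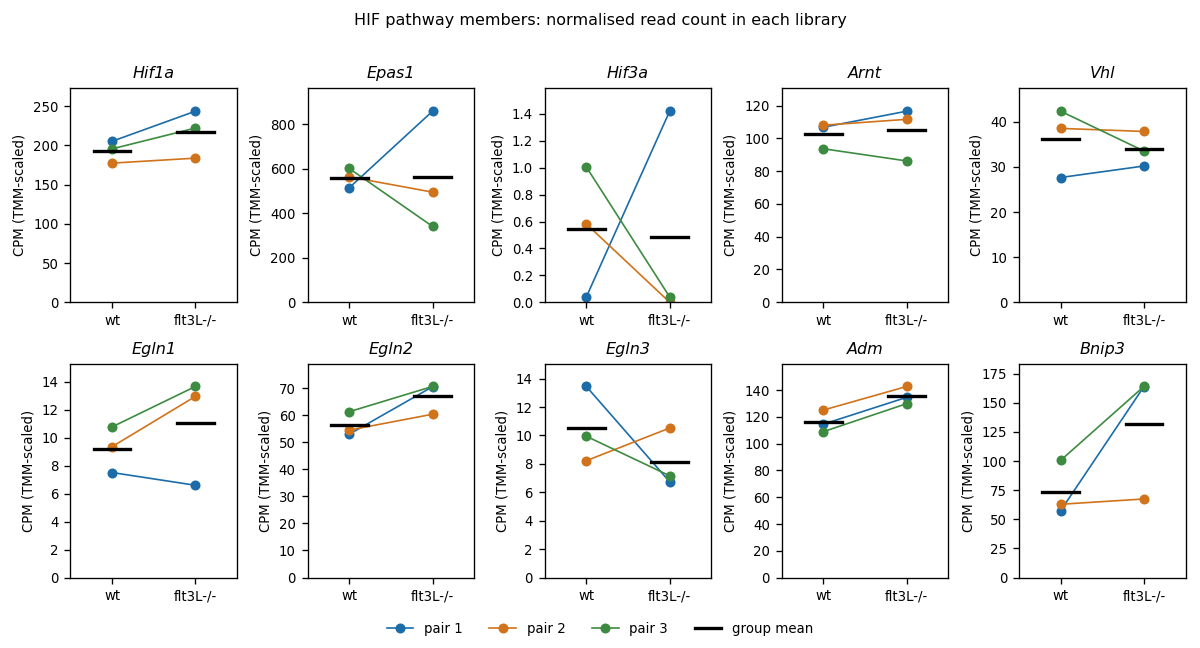
Normalised read count (CPM) of the 10 members in each library. Lines join both libraries of a sorting date, and black bars are group means. *Adm* is the member whose groups do not overlap, and *Epas1* is higher in flt3L-/- in pair 1 and lower in pairs 2 and 3.

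*Hif1a* (ENSMUSG00000021109, GRCm38 chr12:73901375-73947530) encodes the widely expressed alpha subunit. Its level was 205, 177 and 196 CPM in wt of pairs 1, 2 and 3 and 244, 184 and 222 CPM in those labelled flt3L-/-. The groups overlapped, with the pool labelled flt3L-/- of each pair above its wt partner by 0.25, 0.051 and 0.18 on the log2 scale. By edgeR's quasi-likelihood test the fitted log2 difference was 0.16 ± 0.12 (standard error) with a 95% interval from −0.16 to 0.48, at an unadjusted p = 0.256 and an adjusted p = 0.973. The gene model Gm15283 shares 8.11% of the exon bases of *Hif1a*, and reads of shared bases cannot be told apart.

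*Epas1* (ENSMUSG00000024140, chr17:86753700-86833410) encodes HIF-2 alpha. Its level was close in the wt libraries, 515, 564 and 602 CPM, and spread widely in the libraries labelled flt3L-/-, 859.6, 495 and 341 CPM. The highest and the lowest value of all 6 libraries both carried the flt3L-/- label, and the wt values lay between them. Within pairs the log2 difference was 0.74, −0.19 and −0.82, and edgeR's fit gave −0.091 ± 0.33 (standard error, 95% interval −0.94 to 0.76, adjusted p = 0.986). Without pair 1 it was −0.50 and without pair 3 it was 0.28, so 1 pair set its direction.

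The ratio of *Epas1* to *Hif1a*, per kilobase and within a library, does not depend on the scaling between libraries. It was 2.65, 3.36 and 3.25 in the wt libraries and 3.72, 2.84 and 1.62 in the libraries labelled flt3L-/-. *Epas1* was thus the more abundant transcript in 6 of 6 libraries. It made up 72.6% to 77.0% of the alpha subunit level in wt and 61.8% to 78.7% in the other group. Between the groups the log2 ratio differed by 0.49, −0.24 and −1.0 in the pairs, a mean of −0.25 ± 0.75 (SD, n = 3 pairs). An exact permutation test over the pairs, two-sided, gave p = 0.75, and 3 pairs cannot go below 0.25.

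*Hif3a* (ENSMUSG00000004328, chr7:17031507-17062427), whose products include forms that restrain the other alpha subunits, was low. It lay under the detection limit in wt of pair 1 and flt3L-/- of pairs 2 and 3, and above it in the rest. It had 1, 15 and 27 counts in the wt libraries and 39, 0 and 1 counts in those labelled flt3L-/-. Pairs went in opposite directions, and the count of 0 in pair 2 allows up to 0.127 CPM. Its fitted fold change depended on settings for low counts and is not interpreted here.

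*Arnt* (ENSMUSG00000015522, chr3:95434388-95497240), the nuclear partner of every alpha subunit, had 107, 108 and 93.7 CPM in wt and 117, 112 and 86.2 CPM in the pools labelled flt3L-/-. In each group pair 3 was lowest, and the groups overlapped. Its fitted log2 difference was 0.018 (95% interval −0.31 to 0.35, adjusted p = 0.992 in edgeR's quasi-likelihood test).

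*Vhl* (ENSMUSG00000033933, chr6:113623959-113631633) encodes the subunit that recognises hydroxylated alpha subunits. Its level was 27.6, 38.5 and 42.3 CPM in wt and 30.2, 37.9 and 33.5 CPM in the flt3L-/- pools. The values of the latter lay within the wt range, and the pair differences had mixed signs. On the log2 scale the fit gave −0.079 (95% interval −0.49 to 0.33, adjusted p = 0.977 in edgeR's quasi-likelihood test).

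Of the 3 prolyl hydroxylases, *Egln2* lay above *Egln1* and *Egln3* per kilobase, and the ranges of the latter overlapped. *Egln2*, which encodes PHD1, made up 72.6% to 85.2% of the summed level of all 3 per kilobase in the 6 libraries. *Egln1*, which encodes PHD2, made up 6.21% to 12.4%, and *Egln3*, which encodes PHD3 and is itself a HIF target, 8.49% to 19.4%. *Egln2* was thus the predominant hydroxylase transcript in 6 of 6 libraries.

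*Egln2* (ENSMUSG00000058709, chr7:27158658-27166802) had 53.0, 54.5 and 61.3 CPM in wt and 70.5, 60.3 and 70.6 CPM in their flt3L-/- partners. The latter were higher in 3 of 3 pairs, and the groups overlapped only in that wt of pair 3 exceeded flt3L-/- of pair 2. By edgeR's fit the log2 difference was 0.26 ± 0.13 (standard error, 95% interval −0.087 to 0.60), at an unadjusted p = 0.113 and an adjusted p = 0.973.

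*Egln1* (ENSMUSG00000031987, chr8:124908587-124949324), the main oxygen sensor of most cells, had 7.50, 9.35 and 10.8 CPM in wt and 6.59, 12.9 and 13.7 CPM in the pools labelled flt3L-/-. Pair 1 had the lowest value in each group, and the groups overlapped. Its log2 fold change was 0.21 (95% interval −0.39 to 0.81, adjusted p = 0.973 in edgeR's quasi-likelihood test), with 0.41 without pair 1 and 0.059 without pair 2.

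*Egln3* (ENSMUSG00000035105, chr12:54178981-54203860) had 13.5, 8.23 and 9.94 CPM in wt and 6.74, 10.5 and 7.16 CPM in the flt3L-/- pools. The libraries labelled flt3L-/- were lower in pairs 1 and 3 and higher in pair 2. The log2 fold change was −0.37 (95% interval −1.22 to 0.48, adjusted p = 0.973 in edgeR's quasi-likelihood test). It was −0.059 without pair 1 and −0.76 without pair 2, so single pairs set its size.

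*Adm* (ENSMUSG00000030790, chr7:110627661-110629820), with the promoter shown above, encodes adrenomedullin, a vasodilator peptide. It had 115, 125 and 109 CPM in wt and 135, 143 and 130.0 CPM in their flt3L-/- partners. Each library labelled flt3L-/- exceeded all wt libraries, and the pair differences were close to each other at 0.23, 0.19 and 0.25 on the log2 scale (SD 0.032). The fitted log2 fold change was 0.23 (standard error 0.12, 95% interval −0.081 to 0.53), and neither the unadjusted p = 0.116 nor the adjusted p = 0.973 of edgeR's quasi-likelihood test passed the threshold. The model takes its spread from the other genes as well, and 3.53% of all genes tested were likewise higher without overlap. The sum of the cardiomyocyte markers did not overlap either, with 109, 158 and 149 CPM in wt against 187, 184 and 163 CPM (correlation with *Adm* 0.752 over 6 libraries), and its part in the result was not tested.

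*Bnip3* (ENSMUSG00000078566, chr7:138890836-138909519), whose product sits in the outer mitochondrial membrane and promotes mitophagy, had the largest fitted difference among the members other than *Hif3a*. It had 57.3, 62.9 and 100.5 CPM in wt and 164, 67.4 and 164 CPM in the pools labelled flt3L-/-. The latter were higher in 3 of 3 pairs, while flt3L-/- of pair 2 lay under wt of pair 3. The pair differences were 1.52, 0.10 and 0.71 on the log2 scale. By edgeR's fit the log2 difference was 0.77 ± 0.30 (standard error, 95% interval 0.0042 to 1.54), at an unadjusted p = 0.0492 and an adjusted p = 0.973. Without pair 1 it was 0.40 (unadjusted p = 0.149), without pair 2 1.09 (unadjusted p = 0.00871) and without pair 3 0.81 (unadjusted p = 0.115), all by edgeR. The antisense gene model Gm45507 has 97.1% of its exon bases within *Bnip3* and ranged from 24.1 to 42.2 CPM in wt and from 30.1 to 72.1 CPM in the other group. As the libraries were unstranded, reads of the 22.3% of *Bnip3* exon bases shared with it cannot be assigned to either gene. The summed fibroblast markers were lowest, at 6422 and 3316 CPM, in the libraries where *Bnip3* was highest, and their part in the result was not tested.

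**Figure D3:**
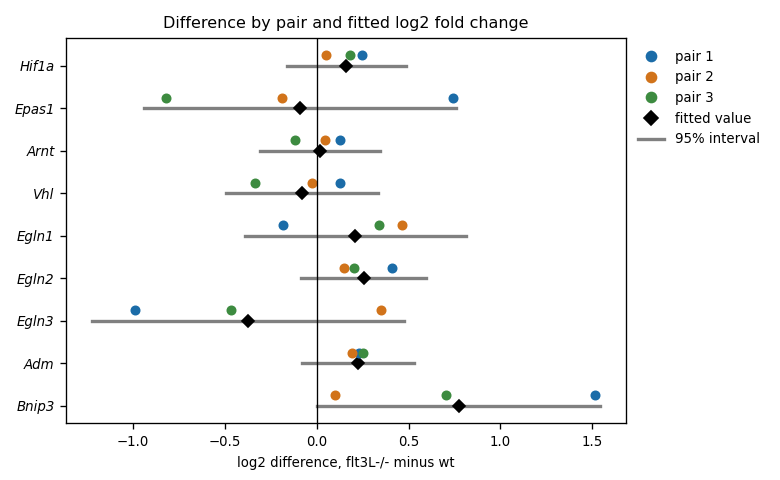
Log2 difference of 9 members between both libraries of each sorting date, flt3L-/- minus wt (coloured circles), with the value fitted by edgeR (diamond) and its 95% interval (grey line). *Hif3a* is left out because its counts were low, from 0 to 39. The pair differences of *Adm* lie together near 0.23, those of *Epas1* spread from −0.82 to 0.74, and the interval of *Bnip3* starts at 0.0042.

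Over the 6 libraries, without regard to group, the members varied to different degrees. The coefficient of variation of *Adm* was 9.99%, of *Arnt* 11.1%, of *Hif1a* 12.1% and of *Egln2* 12.3%, where the median of 4087 genes of moderate to high level was 15.4%. *Vhl* had 15.9%. *Bnip3* with 48.5% and *Epas1* with 30.3% lay above that median, by a 2.86-fold and a 2.52-fold range between the highest and the lowest library. *Egln1* and *Egln3*, at lower levels, had 28.2% and 26.8%.

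Between sorting dates, 0 (0%) genes passed the adjusted threshold in edgeR, 1116 (8.28%) had an unadjusted p under 0.05, and DESeq2 called 403 (2.99%). No member was called by either tool. The smallest unadjusted p of a member in edgeR's test was 0.094, for *Egln1*, and that of *Bnip3* was 0.117 (0.0462 in DESeq2). The date stands for the sort and everything done with it, so its parts cannot be told apart.

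Some members went together across libraries, which is described here over 6 libraries that share pairs and groups. Of the 45 pairs of members, 8 had a correlation of log2 CPM beyond 0.7 in either direction. The share of all gene pairs beyond 0.7 was not computed, so this count is not set against a background. The same holds for the counts of genes above 0.95 given below. *Egln2* and *Bnip3* had 0.962, *Hif1a* and *Bnip3* 0.812, and *Hif1a* and *Egln2* 0.741. *Egln3* ran opposite to *Bnip3* (−0.797) and *Egln2* (−0.773). *Epas1* went with *Arnt* (0.709) and with *Hif3a* (0.777), whose counts were low, and opposite to *Egln1* (−0.775). The genes most like *Epas1* were *Zmiz1* (0.995), *Plpp3* (0.993) and *Cds2* (0.989), and 71 genes tested exceeded 0.95. For *Hif1a* they were Gm14862 (0.977), *Clic4* (0.971) and *Frmd4b* (0.968), with 18 genes above 0.95. *Adm* was closest to *Zxdb* (0.998), *Ccdc9* (0.986) and *Mylk3* (0.981), with 11 above 0.95, and *Egln1* to Gm10719 (0.988), AI413582 (0.988) and *Ndufb10* (0.986), with 87 above 0.95.

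Marker levels of other cell types moved with some members. The 7 fibroblast markers summed to 15810, 8518 and 6558 CPM in wt and 6422, 9920 and 3316 CPM in the flt3L-/- pools, and all 7 had a negative log2 fold change with a median of −0.65. Of the 9 pericyte and smooth muscle markers, 8 had a negative log2 fold change. Positive values were found for 6 of 8 endothelial, 3 of 4 side population, 6 of 7 tested cardiomyocyte and 5 of 5 erythroid markers. They were also found for 4 of 4 neutrophil, 2 of 7 macrophage and monocyte and 2 of 4 tested lymphocyte markers. Among the immediate early and heat shock genes it was 8 of 11, against 50% of all genes. Of 100 correlations between a member and a summed list, 18 lay beyond 0.7 in either direction. How many of all genes tested lay beyond 0.7 with the same sums was not computed, so the 18 are a description only. *Bnip3* ran opposite to the fibroblast sum (−0.854) and with the endothelial (0.784) and side population (0.781) sums. *Egln2* likewise ran opposite to the fibroblast sum (−0.831) and with the side population sum (0.788). *Egln3* showed the reverse, with 0.809 for fibroblast, 0.702 for pericyte and smooth muscle, −0.898 for endothelial and −0.737 for side population markers, and also −0.785 for erythroid and −0.734 for cardiomyocyte markers. *Vhl* went with the macrophage and monocyte (0.882) and lymphocyte (0.824) sums and opposite to the sum of immediate early and heat shock genes (−0.857), which can reflect handling. The macrophage and monocyte sum was 139, 874 and 2365 CPM in wt and 424, 1264 and 175 CPM in the other group, and the immediate early and heat shock sum spanned 30120 to 36300 CPM. The others were *Adm* with cardiomyocyte markers, given above, *Hif1a* with lymphocyte (−0.75) and immediate early and heat shock (0.703) markers, and *Egln1* with pericyte and smooth muscle markers (−0.71). The limit of 0.7 was set after the values were seen. The part of cell composition and handling in the levels of the members and of the pathway genes below was not tested.

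**Figure D4:**
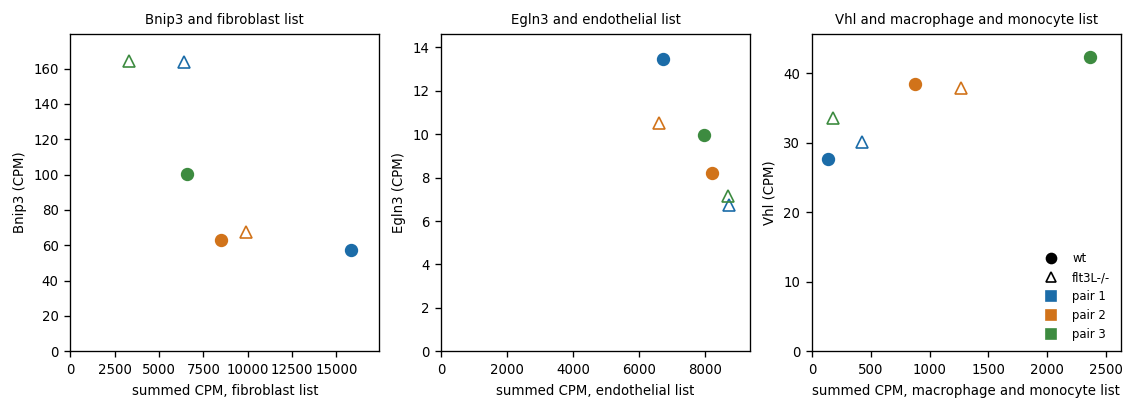
Level of *Bnip3*, *Egln3* and *Vhl* (CPM, vertical axes) against the summed CPM of a marker list (horizontal axes) in the 6 libraries. Filled circles are wt, open triangles are labelled flt3L-/-, and colours mark the pair. *Bnip3* is highest, at 164 CPM, in the libraries labelled flt3L-/- of pairs 1 and 3, which have the lowest fibroblast sums of 6422 and 3316 CPM.

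Other genes of the pathway were taken from 5 lists, and none of their genes passed the adjusted threshold. Of all 13475 genes tested, 50% had a positive log2 fold change, 14.2% were higher in 3 of 3 pairs and 11.5% lower. Among 15 further HIF regulators, 6 (40%) had a positive and 9 a negative log2 fold change (median −0.060), with 2 (13.3%, against 14.2%) higher and 3 (20%, against 11.5%) lower in 3 of 3 pairs. *Hif1an*, which encodes the asparagine hydroxylase that blocks HIF transactivation, had 58.3, 50.7 and 56.0 CPM in wt and 46.7, 40.9 and 45.0 CPM in their flt3L-/- partners. The groups did not overlap, and the log2 fold change was −0.31 (unadjusted p = 0.0544, adjusted p = 0.973 in edgeR's test). *Arnt2*, a relative of *Arnt*, was low and had −0.90 (unadjusted p = 0.0989 in edgeR). *Rbx1*, *Elob* and *Eloc*, which encode partners of VHL in its ligase, had 0.21, 0.045 and 0.11, and the scaffold gene *Rack1* 0.21.

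Of 33 further HIF target genes 31 were tested, and 23 (74.2%, against 50% of all genes) had a positive log2 fold change (median 0.12, against −0.00027 over all genes). In 3 of 3 pairs, 7 (22.6%, against 14.2%) were higher and 0 (against 11.5%) lower. The collagen prolyl hydroxylase gene *P4ha1* had 152, 145 and 232 CPM in wt and 348, 185 and 444 CPM in their flt3L-/- partners (0.83 ± 0.20 on the log2 scale, with the standard error, unadjusted p = 0.0104 in edgeR). Its relative *P4ha2* had 83.1, 75.6 and 138 CPM against 191, 112 and 199.9 CPM (0.77 ± 0.18, unadjusted p = 0.0096 in edgeR). The pair differences were 1.19, 0.35 and 0.94 on the log2 scale for *P4ha1* and 1.20, 0.57 and 0.54 for *P4ha2*. *Apln*, which encodes the peptide apelin, had 8.94, 10.7 and 10.9 CPM against 11.1, 13.2 and 27.2 CPM without overlap (0.64, unadjusted p = 0.0685 in edgeR). Its pair differences were 0.31, 0.31 and 1.31, and without pair 3 the fit gave 0.31. The most abundant genes of the list, *Cxcl12*, *Bhlhe40* and *Hmox1*, had −0.17, 0.23 and 0.12.

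All 16 glycolytic HIF targets were tested, and 13 (81.2%, against 50% of all genes) had a positive log2 fold change (median 0.18). In 3 of 3 pairs, 8 (50%, against 14.2%) were higher and 1 (6.25%, against 11.5%) lower. The glucose transporter gene *Slc2a1* had 33.3, 30.1 and 27.2 CPM in wt and 43.4, 44.8 and 51.2 CPM in their flt3L-/- partners. The groups did not overlap, and edgeR's fit gave 0.62 ± 0.16 (standard error, unadjusted p = 0.014, adjusted p = 0.973). *Ldha*, which encodes lactate dehydrogenase A, had 0.28, and the phosphofructokinase genes *Pfkfb3* and *Pfkl* 0.37 and 0.28. *Aldoa* and *Pkm*, both abundant, had 0.19 and 0.073. The 3 genes with a negative value were *Hk2* (−0.75), *Pdk1* (−0.11) and *Eno1* (−0.012). *Hk2* had the largest absolute value of the list, with pair differences of −0.35, 0.29 and −2.28.

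The receptors and processing enzyme of adrenomedullin were present. Of 7 genes in that list 6 were tested, 4 (66.7%, against 50% of all genes) with a positive and 2 with a negative log2 fold change (median 0.017), and 1 (16.7%, against 14.2%) was higher and 2 (33.3%, against 11.5%) were lower in 3 of 3 pairs. *Ramp2*, which encodes the coreceptor that makes the receptor selective for adrenomedullin, had 199, 236 and 257 CPM in wt and 260.2, 259 and 305 CPM in the pools labelled flt3L-/- (0.26, unadjusted p = 0.11 in edgeR). It shares 33.4% of its exon bases with *Vps25*. The receptor genes *Calcrl* and *Ackr3* had 0.018 and 0.015, both below 0 when scaled by library size only, while *Pam*, which encodes the amidating enzyme, had −0.34. *Ramp1* was low, at 0.67 to 4.00 CPM, and had −0.82 (unadjusted p = 0.113 in edgeR). Its pair differences were −0.89, −0.096 and −1.4. Of 16 *Bnip3* partners and mitophagy genes, 13 (81.2%, against 50% of all genes) had a positive log2 fold change (median 0.12), with 5 (31.2%, against 14.2%) higher and 0 (against 11.5%) lower in 3 of 3 pairs. Among them were *Gabarap* (0.20), *Map1lc3b* (0.17), *Pink1* (−0.044), *Gabarapl2* (0.31) and *Phb2* (0.18), none with an unadjusted p under 0.05 in edgeR.

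**Figure D5:**
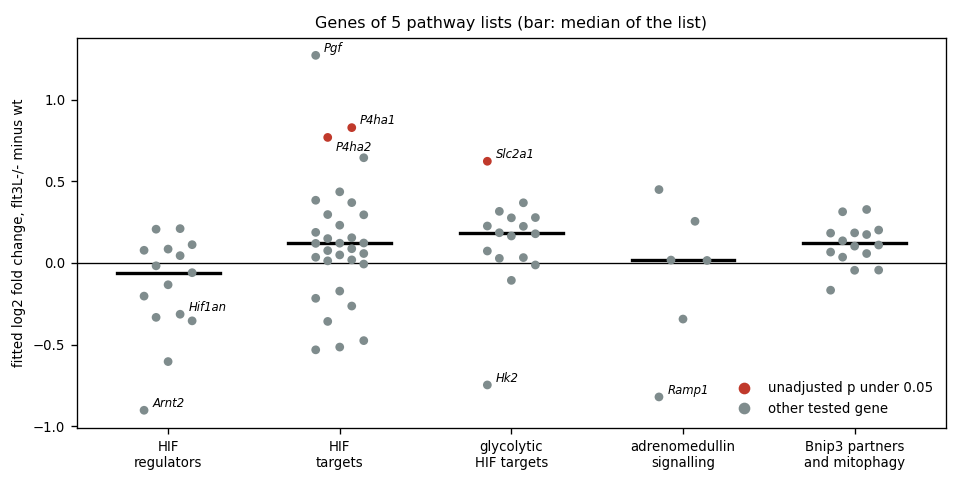
Fitted log2 fold change (flt3L-/- minus wt) of tested genes in 5 pathway lists, with the median of each whole list as a bar. A gene of the mitophagy list that is not reported here is not drawn. Red points, *P4ha1*, *P4ha2* and *Slc2a1*, had an unadjusted p under 0.05, and none passed after adjustment over the 13475 genes tested.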

How the data were processed

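Whole-number counts per gene were deposited by the authors for 6 libraries of polyA RNA (SMART-Seq v4, unstranded). Per the labels and the study's methods, 81-base single reads were aligned to mm10 (STAR 2.5.2a). Up to 10 matching places were allowed for a read. It was assigned to the best of them, or at random among places that matched equally well. QuasR counted reads starting in exons of Ensembl release 88. Random placement and overlapping exons add uncertainty to genes with shared sequence.

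Here, protein-coding genes above 1 CPM in at least 2 libraries (13475) were tested with edgeR 4.0.16 in R 4.3.3, by TMM scaling and the quasi-likelihood test with the sorting date as covariate, and Benjamini-Hochberg adjustment (threshold 0.05). DESeq2 1.42.0 was an alternative. Each library is a pool of 4 mice, so p-values rest on pools and not on single mice. With the date in the fit, those for the group difference measure the spread of the differences within pairs. That spread is taken in part from the other genes. The libraries were paired by the sorting date in the labels. Deviations from the group means correlated at 0.18, 0.104 and 0.116 within dates and at −0.354 to 0.247 across dates, so the values alone do not single out these pairs. Exon lengths and positions came from the GENCODE vM21 annotation of GRCm38, in which 50376 of 50600 gene identifiers were found, and promoters from RefSeq. Named genes were the 10 members, per pathway list the 3 most abundant per exon length and the 3 with the smallest p, and the 3 genes most correlated with *Hif1a*, *Epas1*, *Egln1* and *Adm*. A gene of the mitophagy list that this rule chose is not reported here. Other genes named, such as marker genes, were chosen after their values were seen. Members and lists were chosen with earlier results of these data known. The fits were tested on simulated data.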

Additional observations from a re-analysis of the deposited data

How the results depend on the processing

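No member was called under any of the alternatives run, and none of the 29 other genes that the rule chose from the lists was either. DESeq2 called 21 genes for the difference between the groups and 403 for the sorting date, where edgeR called 0 and 0, and the cause was not tested. Leaving out a pair gave 0 to 112 genes for the sorting date. Without the replicate block, that is without the pairing by date, edgeR called 0 genes, 262 instead of 484 had an unadjusted p under 0.05, and *Bnip3* had a log2 fold change of 0.84 (unadjusted p = 0.0663). Unadjusted calls were 341, 980 and 249 without pairs 1, 2 and 3.

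Of 107 values of members, 100 kept their direction. The sign turned for *Epas1* without the replicate block (0.013) and over left-out pairs (−0.50 to 0.28), for *Hif3a* without pair 2 (0.26), for *Arnt* by library size only (−0.021) and over left-out pairs (−0.036 to 0.086), and for *Vhl* (−0.18 to 0.050). The *Epas1* to *Hif1a* log2 ratio ranged from −0.62 to 0.13 over left-out pairs. Of 319 values of these 29 genes, 307 kept their direction. The exceptions were *Ackr3* and *Calcrl* by library size only (−0.024 and −0.022) and, over left-out pairs, *Ackr3* (−0.13 to 0.20), *Calcrl* (−0.13 to 0.17), *Pink1* (−0.14 to 0.074), *Pkm* (−0.060 to 0.17), *Elob* (−0.086 to 0.14), *Eloc* (−0.16 to 0.33), *Cxcl12* (−0.45 to 0.044) and *Hmox1* (−0.0052 to 0.25). Without losing their sign, *Bhlhe40* ranged over left-out pairs from 0.082 to 0.49 (unadjusted p = 0.0382 in edgeR without pair 1), *Ramp1* from −1.23 to −0.50 and *Gabarap* from 0.093 to 0.31, and without pair 1 *Arnt2* had −0.49 and *Pam* −0.18. Scaling by library size only moved the median of all genes by −0.039 (log2). The 3 pairs leave 2 residual degrees of freedom, which limits the precision of every member. *Hif3a*, with 0 to 39 counts, could be tested in only some alternatives.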
